A study of Mus musculus with 6 samples.

Results

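The small nucleolar and structural noncoding RNAs were taken as every gene of the deposited table whose symbol starts with Snora, Snord or Scarna, together with Rn45s, Rpph1, Rmrp and Terc. The rule gave 117 of 23518 genes: 70 Snord, 34 Snora, 9 Scarna and 4 structural RNAs. Rn7sk, also named by the rule, was not analysed here. RNA came from ear skin of mice on day 1 of imiquimod, which activates Toll-like receptors and was given as 10 mg of a 5% cream to the ears. The 6 samples were 3 wild type (WT) and 3 HdR, read from the series' design as HOIL1 ΔRING1, a HOIL1 (gene Rbck1) without the RING1 domain, and both genotypes carried the treatment. The labels used here do not name strain, sex or age, or say whether a sample was 1 mouse or a pool, so p values measure the spread between these samples.

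Box C/D small nucleolar RNAs (Snord) guide ribose methylation of ribosomal RNA, and box H/ACA RNAs (Snora) guide its pseudouridylation. Scarna RNAs do the same for spliceosomal RNAs in the Cajal body. Most of them lie within a host gene and are trimmed out of its spliced introns. Many hosts are genes of ribosomal proteins or of noncoding RNAs. Rn45s is the precursor of the large ribosomal RNAs, Rpph1 the catalytic RNA of RNase P, which trims tRNA precursors, Rmrp the RNA of RNase MRP, which acts on precursor rRNA, and Terc the template RNA of telomerase. RNA polymerase III transcribes Rpph1 and Rmrp from promoters of their own, and RNA polymerase I transcribes Rn45s.

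The sequences below are those of members the results turn on, as GENCODE M21 gives them on GRCm38 (DNA letters, each 5′ to 3′ on the gene's strand). Rpph1 (its first 300 of 319 bases) and Rmrp (whole) are printed because they led the comparison. Rpph1 lies at chr14:50807449-50807767 and Rmrp at chr4:43492783-43493063, both on the minus strand.
Rpph1: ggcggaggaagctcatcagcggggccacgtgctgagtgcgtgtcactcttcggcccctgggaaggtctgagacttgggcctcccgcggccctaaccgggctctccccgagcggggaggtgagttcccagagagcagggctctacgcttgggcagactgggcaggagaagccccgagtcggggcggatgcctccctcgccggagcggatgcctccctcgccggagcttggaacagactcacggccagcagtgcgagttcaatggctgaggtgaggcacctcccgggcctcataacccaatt
Rmrp: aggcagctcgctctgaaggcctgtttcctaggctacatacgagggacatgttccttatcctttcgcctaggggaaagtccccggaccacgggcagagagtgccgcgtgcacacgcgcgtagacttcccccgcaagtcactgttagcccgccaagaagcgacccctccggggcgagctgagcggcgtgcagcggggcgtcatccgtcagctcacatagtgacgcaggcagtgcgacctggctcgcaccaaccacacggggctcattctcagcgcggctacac
Snord104, Snord12, Snord47 and Snord22 are shown as members that rose, and Snord17 as the longest Snord member. The HdR libraries of Snord17 had the same order as those of Rpph1, at far lower levels, and Snord17 was not tested. In the box C/D members the capitals mark an exact TGATGA, the C box, near the 5′ end and CTGA, the D box, near the 3′ end. Snord104 (chr11:106500993-106501062, plus strand) has no host gene on its strand. Snord12 (chr2:167065276-167065365, plus strand) lies in Zfas1, Snord47 (chr1:161038082-161038158, plus strand) in Gas5, Snord22 (chr19:8725866-8725991, plus strand) in Snhg1, and Snord17 (chr2:144265979-144266216, minus strand) in Snx5.
Snord104: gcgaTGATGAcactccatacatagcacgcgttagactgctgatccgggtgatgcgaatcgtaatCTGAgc
Snord12: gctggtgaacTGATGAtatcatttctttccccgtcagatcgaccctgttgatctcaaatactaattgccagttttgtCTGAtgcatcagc
Snord47: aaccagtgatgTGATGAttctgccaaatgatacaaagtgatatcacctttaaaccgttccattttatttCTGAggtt
Snord22: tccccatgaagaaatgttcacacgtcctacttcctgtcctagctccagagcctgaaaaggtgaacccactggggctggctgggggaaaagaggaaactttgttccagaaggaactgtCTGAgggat
Snord17: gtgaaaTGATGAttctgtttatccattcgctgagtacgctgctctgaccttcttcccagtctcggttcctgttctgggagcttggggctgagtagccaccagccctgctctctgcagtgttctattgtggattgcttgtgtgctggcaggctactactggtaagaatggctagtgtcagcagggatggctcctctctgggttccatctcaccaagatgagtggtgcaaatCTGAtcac
In the box H/ACA members the capitals mark the ACA near the 3′ end. Snora65 (chr2:32963291-32963420, plus strand) lies in Rpl12, Snora24 (chr3:123507937-123508066, minus strand) in Snhg8 and Snora61 (chr4:132310240-132310369, plus strand) in Snhg12.
Snora65: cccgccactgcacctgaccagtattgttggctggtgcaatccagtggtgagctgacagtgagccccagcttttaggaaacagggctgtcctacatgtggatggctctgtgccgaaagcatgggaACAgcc
Snora24: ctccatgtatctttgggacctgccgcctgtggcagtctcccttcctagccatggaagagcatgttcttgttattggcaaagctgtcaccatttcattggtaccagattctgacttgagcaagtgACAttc
Snora61: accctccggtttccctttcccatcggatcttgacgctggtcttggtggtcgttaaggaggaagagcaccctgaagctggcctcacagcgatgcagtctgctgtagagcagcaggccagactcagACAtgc
The letters TGATGA stood in the first 26 bases of 44 of the 69 Snord members typed as snoRNA in GENCODE M21 (63.8%). They stood there in none of 34 Snora members and in 21.7% of the 1529 snoRNA and scaRNA genes of GENCODE M21. Snord43, typed as a miRNA, is no part of these counts. CTGA stood in the last 18 bases of 67 of 69 Snord (97.1%) and 3 of 34 Snora members (8.82%), against 32.8% of those 1529 genes. ACA stood in the last 8 bases of 32 of 34 Snora (94.1%) and 6 of 69 Snord members (8.70%), against 47.3%. The gene strand alone was searched. By these letters the symbols and the sequences mostly matched in class. Of 112 members whose sequences were compared with each other, 8 had a partner over 80% identical, such as Snord14c and Snord14d at 97.67% and Snord1b and Snord1c at 97.37%. Reads of such pairs may have been split between them, and none of the 8 was among the genes tested.

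The table holds aligned bases per gene. Levels below are bases per Mb of aligned bases after scaling between libraries with the trimmed mean of M values. Read pairs, here and below, are bases divided by 300, the length taken for a whole pair, and 1 base per Mb stood for 11.7 to 23.6. On a gene shorter than this a pair can add fewer bases, so the pairs that touched it can be more than stated. Totals were 5038 to 5966 Mb in WT and 4433 to 5264 Mb in HdR. A gene passed the filter and was tested when at least 3 libraries reached 1 base per Mb. Log2 changes are HdR minus WT of log2(bases per Mb + 1), which understates the change of low genes, with adjusted p values from limma over 15049 genes and a threshold of 0.05. Rbck1, the altered gene, was lower in HdR (61.9 ± 6.02 to 18.9 ± 5.50 bases per Mb, SD, n = 3, log2 change -1.70, limma adjusted p = 0.00438). The 6 keratinocyte markers summed to 11051 to 13051 bases per Mb in WT and 8801 to 10416 in HdR, so the skin label held in each library.

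Of the 117 genes, 26 reached the filter: 15 Snora, 8 Snord, no Scarna and Rn45s, Rpph1 and Rmrp. Of these, 16 rose in HdR (8 Snora, 5 Snord and the 3 structural RNAs), where 12.7% of all genes tested rose. None fell, where 17.9% of all genes did. At an unadjusted limma p under 0.05, 18 were higher and 0 lower, and voom with sample weights called 19 higher and 0 lower. Rpph1, Rmrp, Snora61, Snord72 and Snord99 passed the filter through HdR alone, having no WT library at 1 base per Mb, and so had to differ. Their own p values and the counts over the 26 carry that selection. Of the other members called, Snora41, Snora3, Snord47 and Snora68 had only 1 WT library at 1 base per Mb. They passed the filter mainly through HdR, and their p values carry part of that selection. Without the filter, 14 of the 117 were higher and 0 lower by limma (4.37% and 4.84% of 23289 genes), Rpph1, Rmrp and Snora61 among them and Snord72 not (limma adjusted p = 0.0507), and the median was 0.07 over the members and 0.02 over all genes. With the filter, the median log2 change was 0.65 over the 26 and -0.13 over all genes tested. Scaling by total bases moved the median of all genes to -0.41, that of the members to 0.54 and the members called to 11, all higher. Over the 117, all 3 HdR libraries lay above all 3 WT libraries for 43 and below them for 6, where 20.3% and 21.3% of the 23289 genes with a value did.

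**Figure D1:**
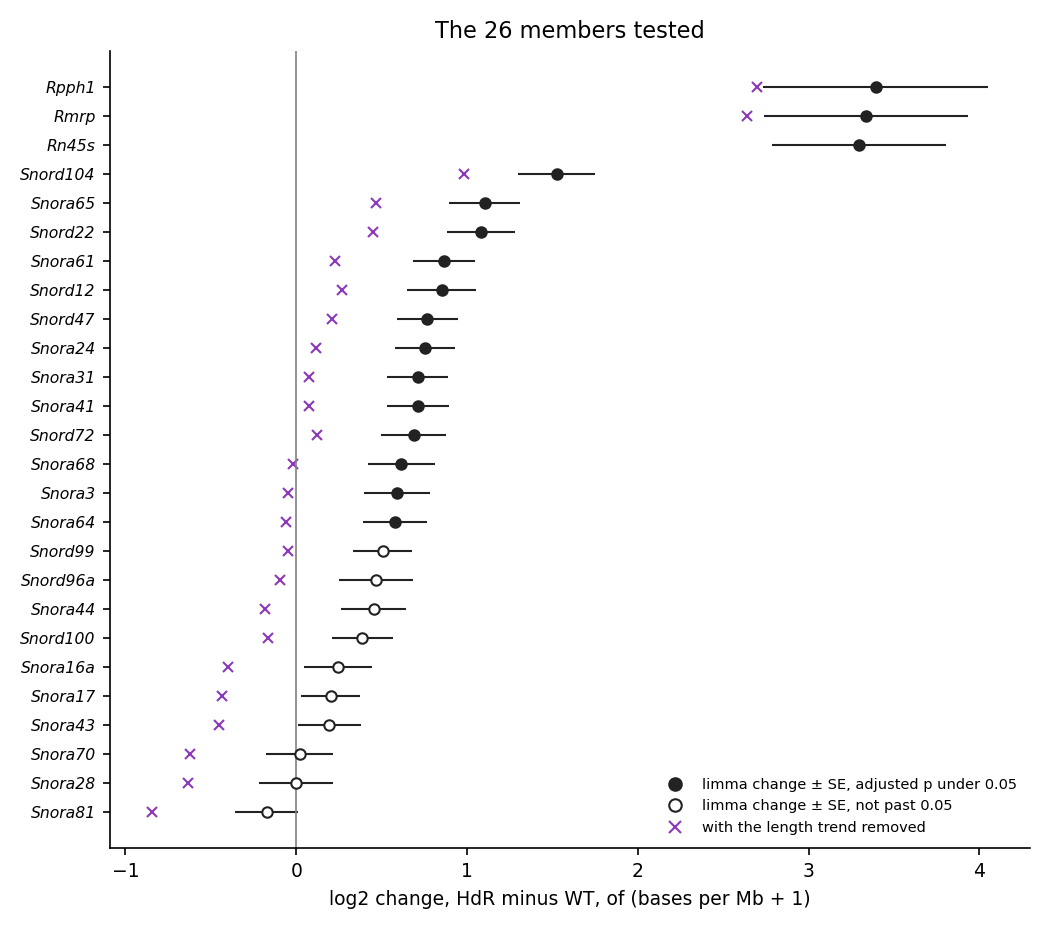
Log2 change, HdR minus WT, of log2(bases per Mb + 1) for the 26 members tested, with points and bars for the limma estimate ± SE, filled where the adjusted p is under 0.05, and crosses for the change after the trend with transcript length was removed from each library (Rn45s has no annotated length). Filled points run from 0.58 for Snora64 to 3.39 for Rpph1, and the crosses of all but Rpph1, Rmrp and Snord104 lie under 0.50.

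Short genes outside the members rose too. Genes tested that are no members and have transcripts of at most 500 nt numbered 131, of which 73 rose and 8 fell, with a median of 0.94. When a spline on transcript length was taken out of each library, 3 members remained higher (10.9% of all genes were) and 1 was lower (8.47% were). The 3 were Snord104 and, having entered through HdR alone, Rpph1 and Rmrp. The lower one was Snora81 (-0.84, limma adjusted p = 0.0434). The median of the 25 with a length was -0.02, against 0.00 for all genes. The calls also hung on the number of libraries. Without WT replicate 1 there were 4 members called and without WT replicate 3 there were 5. Leaving out HdR replicate 1, 2 or 3 gave 8, 8 and 9, with 20 members then passing the filter. With the filter asked in 2 libraries, a choice made after seeing the data, those counts were 12, 9 and 14.

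The 3 structural RNAs had the largest changes of the members tested. Rn45s stood at 997, 1167 and 863 bases per Mb in WT replicates 1 to 3, and the HdR replicates held 3958, then 19414, then 12451. It took 0.102% to 0.119% of all aligned bases in WT and 0.368%, 1.54% and 1.21% in HdR. The groups did not overlap, the log2 change was 3.30 (SE 0.51, limma adjusted p = 0.00760) and it was 2.81 without HdR replicate 2 (limma adjusted p = 0.0276). The labels used here do not say how ribosomal RNA was removed from these libraries, and its part in this value was not tested.

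Rpph1 held 0.502, 0.714 and 0.227 bases per Mb in WT, and in HdR 3.46 in replicate 1, 40.2 in replicate 2 and 19.0 in replicate 3. In read pairs these were 9.72, 13.7 and 5.37 against 56.5, 470 and 275. All HdR libraries were above all WT libraries, and the HdR libraries were far apart from each other. The HdR mean was 43.4 times the WT mean (log2 change 3.39, SE 0.66, limma adjusted p = 0.0127, or 0.0448 over all genes without the filter). The adjusted p rose to 0.0508 without WT replicate 1 and 0.0617 without WT replicate 3. The change was 2.72 once HdR replicate 2 was dropped and the filter asked in 2 libraries (limma adjusted p = 0.0381).

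Rmrp showed nearly the same pattern across libraries, at 0.428, 0.702 and 0.121 bases per Mb in WT and, in HdR replicates 1 to 3, 3.83, 35.1 and 15.02. The WT libraries rested on 2.85 to 13.5 read pairs and the HdR libraries on 62.6 to 411. The groups did not overlap, and the change was 3.34 on the log2 scale (SE 0.60, limma adjusted p = 0.0105, or 0.0415 over all genes without the filter), or 2.70 once HdR replicate 2 was dropped in the same way (limma adjusted p = 0.0302). Per 100 nt, Rpph1 and Rmrp had like levels, 0.151 and 0.148 bases per Mb in WT and 6.54 and 6.40 in HdR. Rmrp overlaps Ccdc107 on the other strand, and whether the counting used strand is not given, so reads of the pair cannot be told apart. Ccdc107, looked at after its values were seen, stood at 12.2 to 16.6 bases per Mb in WT and 25.1 to 37.8 in HdR (log2 change 1.08, limma adjusted p = 0.0122).

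Terc was below the filter. It held 0.0497, 0.345 and 0.0673 bases per Mb in WT and 0.255, 0.906 and 0.163 in HdR, and the groups overlapped. With bases worth under 11 read pairs in every library, Terc was not tested, and a difference could be missed at this depth. Snord17, the longest Snord member, was at 0.145, 0 and 0.177 bases per Mb in WT and 0.302, 1.90 and 0.850 in HdR, which is at most 4.17 read pairs against 4.92 to 22.2. It is no part of the tested set. Scarna2 and Scarna10 lay highest in HdR replicate 2 as well, at up to 3.01 and 2.43 read pairs.

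HdR replicate 2 was the highest library for Rn45s, Rpph1, Rmrp, Snord17, Terc, Scarna2 and Scarna10, and HdR replicate 1 the lowest HdR library for all of these but Terc. The 8 members over 200 nt together held 1.11 to 1.996 bases per Mb in WT and 8.29, 79.7 and 36.1 in HdR. Most of each HdR sum was Rpph1 (3.46, 40.2 and 19.0) and Rmrp (3.83, 35.1 and 15.02). The sum thus says little of the other members over 200 nt. HdR replicate 2 also had the highest sum of neutrophil markers. Those 7 genes summed to 144 to 199 bases per Mb in WT and 971, 3179 and 693 in HdR. Of 6 tested, 4 were higher, and none of the 7 was at 0 in every library. S100a8 and S100a9 held most of the sum in HdR replicate 2, at 1421 and 1708. Retnlg was highest in HdR replicate 3, at 7.28, 16.2 and 19.6 in HdR replicates 1 to 3. Cxcr2 was at 11.2, 14.3 and 12.2 in these libraries. Macrophage markers summed to 576 to 1079 in WT and 1849 to 2298 in HdR (5 of 6 higher). Skeletal muscle markers summed to 1837 to 2621 and 3376 to 4290 (3 of 6 higher). With the replicate number as a block, 2 of these 6 were lower, and Myh1 went from 277 to 125 (limma adjusted p = 0.0802 without the block). Hair follicle markers summed to 362 to 552 and 18.01 to 65.2 (6 of 6 lower). Fibroblast markers summed to 4803 to 6495 and 5026 to 6410 (2 of 5 lower). Of 6 keratinocyte markers, 1 was higher and 2 lower. Their part in the members' values was not tested. In whole skin, fewer cells of a type and less RNA per cell cannot be told apart.

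**Figure D2:**
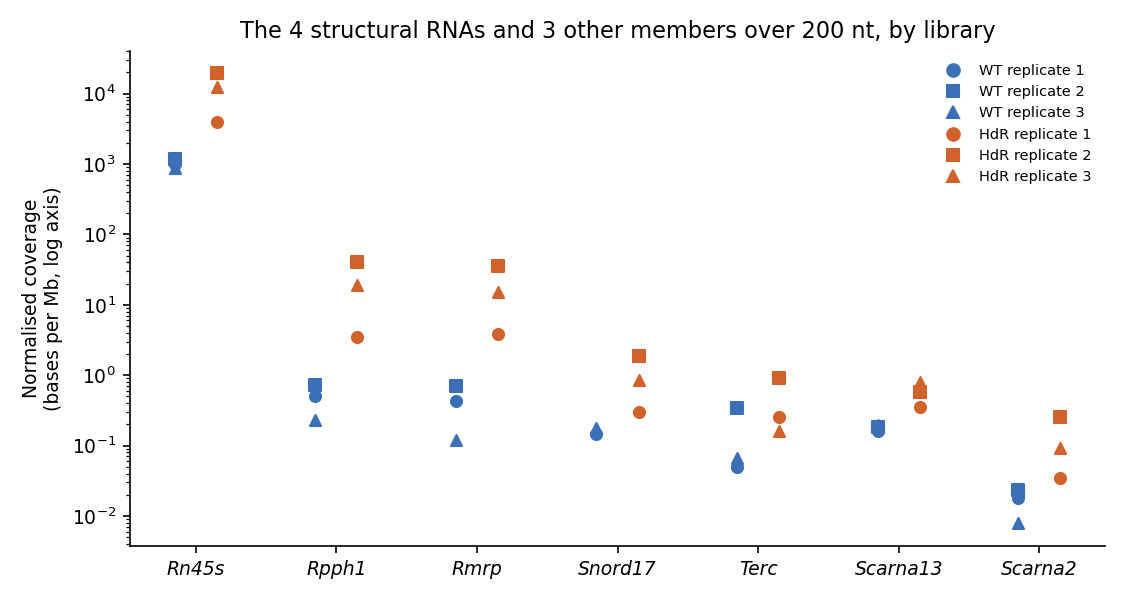
Normalised coverage in bases per Mb (log axis) of Rn45s, Rpph1, Rmrp and Terc and of Snord17, Scarna13 and Scarna2, by library, with WT in blue, HdR in orange and a symbol for each replicate number (the 0 of Snord17 in WT replicate 2 cannot be drawn). HdR replicate 2 is the top point of every gene shown but Scarna13, and the groups overlap in Terc.

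Box C/D members were led by Snord104, a guide for methylation of the large-subunit ribosomal RNA. In WT it was at 2.67, 3.79 and 2.54 bases per Mb, and in HdR at 8.82, 13.8 and 9.17. Every HdR library was above every WT library, and the change was 1.52 (SE 0.23, limma adjusted p = 0.00682). Snord104 was past the threshold in all 21 alternative settings, with 0.98 after removal of the length trend (limma adjusted p = 0.0177).

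Snord22 was at 4.30, 2.98 and 2.70 bases per Mb in WT and 7.89, 8.27 and 8.003 in HdR. The HdR libraries lay close together and all above WT, and the change was 1.08 (SE 0.20, limma adjusted p = 0.0109). Snord22 lacks an exact TGATGA in the window searched and carries CTGA near its 3′ end. Snord12, at 1.20 to 1.89 in WT and 2.75 to 3.94 in HdR, rose by 0.85, Snord47, at 0.724 to 1.08 and 1.88 to 2.44, by 0.77, and Snord72, at 0.279 to 0.632 and 1.03 to 1.68, by 0.69 (limma adjusted p = 0.0187, 0.0180 and 0.0293). Snord96a (3.04 ± 0.427 and 4.66 ± 1.17), Snord100 (1.01 ± 0.167 and 1.63 ± 0.238) and Snord99 (0.507 ± 0.159 and 1.13 ± 0.149, all SD, n = 3, WT then HdR) did not pass the threshold, with limma adjusted p of 0.119, 0.117 and 0.0551.

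The other 62 Snord members were below the filter, so the class is known mostly from sums. The 70 Snord members together held 27.8, 25.9 and 21.2 bases per Mb in WT and 50.1, 55.8 and 52.1 in HdR. Below the filter, 40 had a higher and 22 a lower mean in HdR, and all 3 HdR libraries lay above WT for 16 of the 62 and below for 5, where 20.3% and 21.3% of all genes with a value did. The 5 that lay below were Snord2, Snord71, Snord98, Snord70 and Snord88c. Only Snord2 among them rested on more than 2 read pairs in a WT library: it had 12.0 to 16.3 read pairs in WT and 1.56 to 7.40 in HdR. Its host Eif4a2, an RNA helicase of translation initiation, was at 294 ± 29.99 and 283 ± 25.5 bases per Mb.

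Box H/ACA members were led by Snora65, in an intron or exon of Rpl12 depending on the transcript. In WT it was at 3.09, 3.43 and 1.98 bases per Mb, and HdR replicates 1 to 3 had 6.99, 7.74 and 6.67. The groups did not overlap, and the change was 1.10 (SE 0.21, limma adjusted p = 0.0119). Without WT replicate 1 the adjusted p was 0.0508, and with the length trend removed the change was 0.47 (limma adjusted p = 0.0919). Snora61 was at 0.476 to 0.800 bases per Mb in WT and 1.61 to 2.19 in HdR, and Snora24 at 1.22 to 1.41 and 2.41 to 3.18. Their changes were 0.86 and 0.75 (limma adjusted p = 0.0142 and 0.0184).

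The other 5 Snora members that rose did so by 0.58 to 0.71: Snora31 in Tpt1 and Snora41 in Eef1b2 by 0.71 each, Snora68 by 0.62, Snora3 in Rpl27a by 0.59 and Snora64 in Rps2 by 0.58. Of these, Snora68, Snora3 and Snora64 turned below 0 when the length trend was removed (-0.02, -0.05 and -0.06). The 7 that did not pass had changes from -0.17 in Snora81 to 0.45 in Snora44. Snora28 in Eif5 was level between groups at 1.54 ± 0.182 and 1.59 ± 0.597 bases per Mb (SD, n = 3, log2 change 0.00, SE 0.22), and its sign turned with several settings. The 34 Snora members summed to 23.5, 23.8 and 20.6 bases per Mb in WT and 41.1, 37.5 and 40.6 in HdR. Below the filter, 14 of 19 had a higher mean in HdR and 5 a lower one, with 5 of the 19 wholly above WT and 1, Snora2b, wholly below (20.3% and 21.3% of all genes with a value).

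Scarna members were scarce. The 9 summed to 0.587, 0.415 and 0.949 bases per Mb in WT and 0.767, 2.15 and 1.29 in HdR, and the groups overlapped. Scarna13, the most abundant by its mean, was at 0.162, 0.183 and 0.199 in WT and 0.349, 0.581 and 0.812 in HdR. It stood on 3.13 to 4.69 read pairs in WT and 5.70 to 11.8 in HdR, all HdR above all WT, and lies in Snhg10, a noncoding host that rose (2.23 to 6.35, log2 change 1.20, limma adjusted p = 0.0120, or 0.0824 with the length trend removed). Scarna6 (0.0276 to 0.316 and 0.0100 to 0.513) and Scarna3a (0.0599 to 0.183 and 0.0964 to 0.368) overlapped between groups, as did Scarna17 (0.0663 to 0.213 and 0.0933 to 0.198).

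The joint sum of snoRNA and scaRNA members was steady within HdR where the structural RNAs were not. The 9 Scarna members, a small part of it, were not steady by themselves (0.767, 2.15 and 1.29 in HdR). All 113 Snora, Snord and Scarna members together held 51.9, 50.1 and 42.8 bases per Mb in WT and 92.0, 95.4 and 94.0 in HdR. The 4 structural RNAs held 3966, 19490 and 12485 in the same HdR libraries, nearly all of it Rn45s. These sums are descriptions with no test.

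The guide RNAs are described next by the kind of gene in which they lie. Host genes were read from GENCODE M21 as genes on the same strand that span the member, and 53 members overlap an exon of some host transcript, 54 lie in introns of all host transcripts and 6 have no host on their strand. The table gives sums of bases per symbol, so reads of a mature guide RNA, of an unspliced host and of a host exon over the same place cannot be told apart. The 32 members in ribosomal protein genes summed to 17.96, 18.3 and 13.1 bases per Mb in WT and 33.1, 33.7 and 31.4 in HdR, with 31 means higher in HdR, 20 wholly above WT and none wholly below. The 22 in long noncoding hosts summed to 14.2, 13.5 and 11.5 in WT and 28.5, 28.8 and 29.8 in HdR, with 18 means higher, 13 wholly above and none below. The 49 in other protein-coding genes summed to 14.1, 11.6 and 12.7 in WT and 17.5, 14.9 and 19.4 in HdR, with 24 means higher, 4 wholly above and 6 wholly below. Over all genes with a value, 20.3% lay wholly above and 21.3% wholly below, so both shares were lower among members in other coding hosts. The difference between these kinds of host was not tested.

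**Figure D3:**
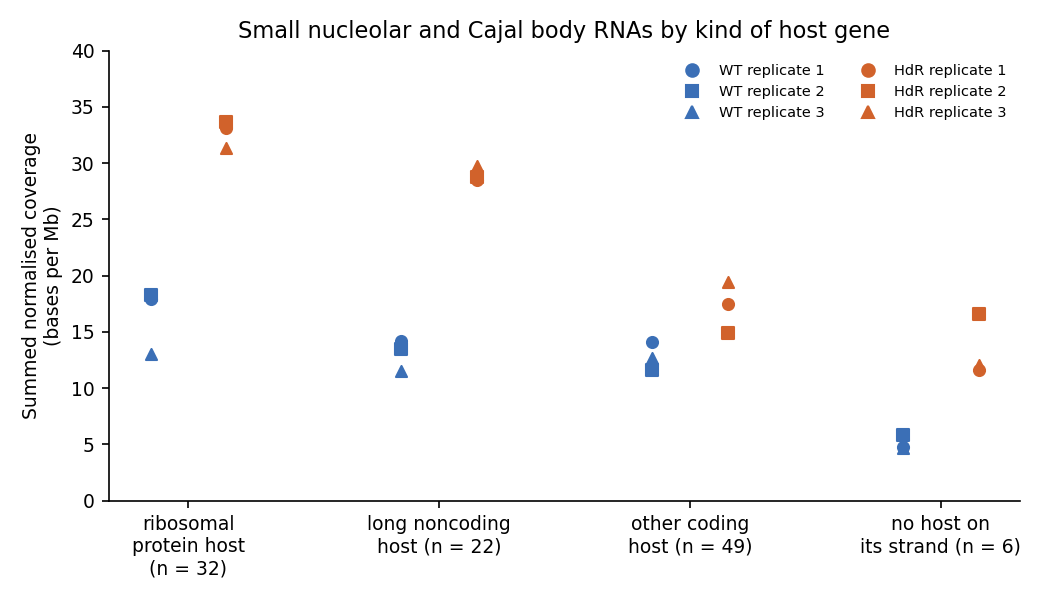
Summed normalised coverage in bases per Mb of the snoRNA and scaRNA members by kind of host gene and library, with WT in blue, HdR in orange and a symbol for each replicate number; 4 members with another or no table entry for the host are left out. The HdR points sit at 31.4 to 33.7 for ribosomal protein hosts and 28.5 to 29.8 for long noncoding hosts, all above the WT points, and at 14.9 to 19.4 for other coding hosts.

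Host genes moved mostly upward. Of 77 host genes in the table, all were tested, 36 rose and 8 fell (12.7% and 17.9% of all genes), with a median log2 change of 0.51. The replicate block gave 43 higher and 14 lower, total scaling 32 and 14, and removal of the length trend 29 and 2. Among 19 tested members paired with a tested host, 11 pairs had both higher, in 5 the host alone passed and in 3 neither. The HdR mean over the WT mean had a median of 2.15 for the members and 2.34 for their hosts, and the host ratio was the larger in 15 of 19 pairs. The counts and medians include Snora61, Snord72 and Snord99, which entered through HdR alone. Among the members called, they also include Snora41, Snora3 and Snord47, which entered mainly through HdR. Across these 19 pairs, which share 6 libraries and 16 hosts, the log2 ratios had a Pearson r of 0.778, given as a description.

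Snhg12, a noncoding host, held 4 tested members. It rose from 14.98 ± 1.86 to 38.2 ± 2.45 bases per Mb (SD, n = 3, log2 change 1.30, limma adjusted p = 0.00369), a ratio of 2.55. Its members had ratios of 3.13 (Snora61), 2.24 (Snord99), 1.77 (Snora44) and 1.42 (Snora16a). Snora61, which entered the test through HdR alone, passed the threshold, and whether the 4 differ was not tested. Snora16a did not separate the groups, at 0.747 to 1.01 and 0.919 to 1.79, and has 2 nested entries in GENCODE, as do Rmrp and Snora43. Per nucleotide the 4 stood at 49.4% to 70.4% of their host in WT and 37.3% to 61.8% in HdR. Here and below, the host's bases are divided by its longest GENCODE transcript, such as 2728 nt for Snhg1 and 2863 nt for Rpl12. Where most host RNA is shorter than that, the percent of host is too high.

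Other noncoding hosts rose as well. Snhg8 went from 58.4 ± 17.2 to 177 ± 32.5 bases per Mb (ratio 3.03), above the 2.23 of Snora24. Snhg1 rose by 1.41 (limma adjusted p = 0.0117), and Snord22 stood per nucleotide at 112% of it in WT and 104% in HdR. Gas5 rose by 1.23 (limma adjusted p = 0.00906) with Snord47 at 12.9% and 13.8% of it. Without WT replicate 1 the limma adjusted p of Snhg1 and Gas5 was 0.0529 and 0.0519. Zfas1, with Snord12 at 39.9% and 46.8% of it, was at 79.2, 145.3 and 63.3 bases per Mb in WT and 137.9, 266 and 173 in HdR, and its groups overlapped. The log2 change of Zfas1 was 1.03 (limma adjusted p = 0.0431). It missed the threshold with total scaling (0.0713), with the length trend removed (0.0616) and without a filter (0.0989). Dropping HdR replicate 2 or 3 gave 0.144 and 0.0696, and dropping WT replicate 1 or 3 gave 0.136 and 0.128. The noncoding gene 2410006H16Rik, from 56.0 to 150.2 bases per Mb, carries Snord49a, Snord49b and Snord65, all below the filter and all wholly above WT in HdR. Snord65 was at 0.229 to 0.306 in WT and 0.920 to 0.965 in HdR.

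Ribosomal protein hosts were far more abundant than their members. Snora65 stood at 3.45% of Rpl12 per nucleotide in WT and 3.42% in HdR, and Snora3 at 0.800% and 0.777% of Rpl27a. Outside the ribosomal proteins, Snora31 stood at 0.252% and 0.228% of Tpt1, the gene of the translationally controlled tumor protein. Rpl13a carries 4 Snord members below the filter. Of these, Snord32a and Snord33 were wholly above WT in HdR, and Snord34 and Snord35a overlapped. Of all 84 Rpl and Rps genes tested, 74 rose and none fell, with a median of 1.22 (12.7% and 17.9% of all genes).

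**Figure D4:**
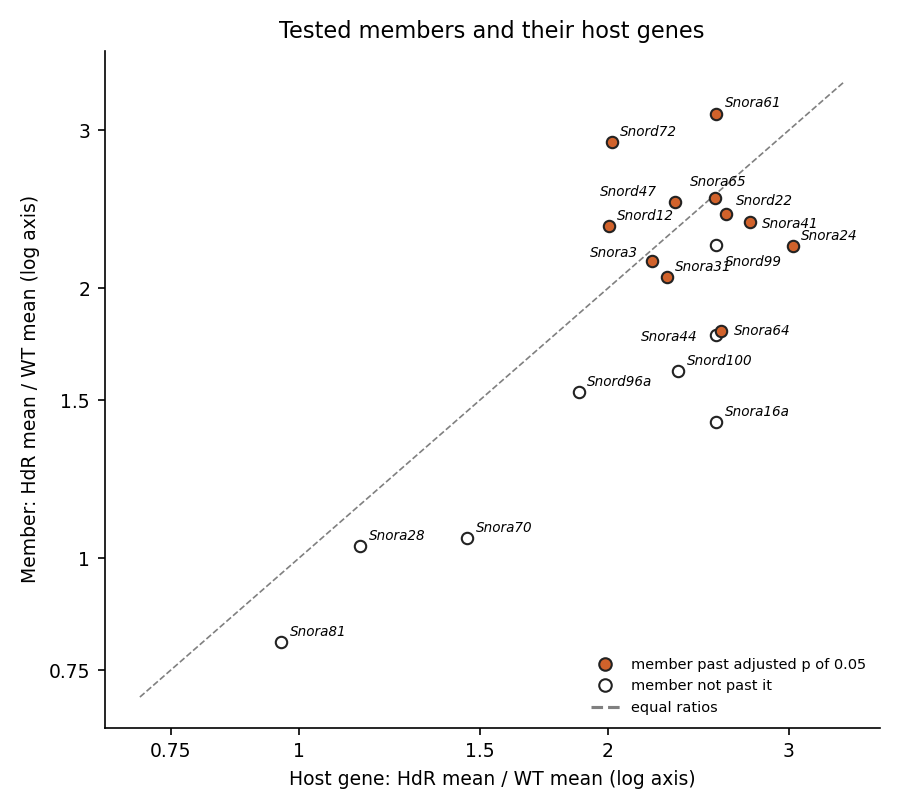
Ratio of the HdR mean to the WT mean for 19 tested members (vertical, log axis) against the same ratio for their host genes (horizontal, log axis), filled where the member passed an adjusted p of 0.05 and with a dashed line at equal ratios. Points lie below the line in 15 of 19 pairs, and Snord72 and Snora61 are among the 4 above it.

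Many ribosomal protein and snoRNA host genes begin with a run of pyrimidines at the start site, the terminal oligopyrimidine tract of translation-controlled mRNAs. A run of at least 6 pyrimidines (C or T, gene strand only) was sought, starting within 5 bases of the RefSeq start (GRCm38.p6). It was found in 8 of 13 matched noncoding hosts (61.5%) and 5 of 16 matched ribosomal protein hosts (31.2%). The shares were 14.7% of other coding hosts and 15.9% of all 27025 genes. Of 23 ribosomal protein hosts, 16 were matched. Shorter runs and runs at other starts were missed, so the shares can be too low. The difference between kinds of host was not tested. The 30 bases around the start of 5 noncoding hosts of members that rose are printed with the run in capitals, at chr4:132308663-132308692 and chr19:8723472-8723501 (plus strand), chr3:123508322-123508351 (minus strand), chr1:161035151-161035180 and chr2:167062919-167062948 (plus strand).
Snhg12: ggccgttctcagTCCTTTCTCgcttcatcc
Snhg1: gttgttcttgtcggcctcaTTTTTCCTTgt
Snhg8: gcaccgttcagaagTCTCTTTggctgcgat
Gas5: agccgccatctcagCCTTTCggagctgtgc
Zfas1: ttgactgcgccccgggcggccgcaggtctc
Zfas1 has no such run in this window, and another annotated start of Gas5 has none. These are matches of letters and say nothing on use of the start sites.

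The proteins that bind, make or trim the members moved in both directions. Over 11 lists of partners and processing factors, 149 of 151 genes were tested, of which 37 rose and 11 fell, with a median of 0.16. Over all genes tested, 12.7% rose and 17.9% fell, the shares against which each list below is to be read. The replicate number as a block gave 47 and 23 (18.3% and 27.2% of all genes), removal of the length trend 29 and 3 (10.9% and 8.47%), and total scaling 18 and 19 with a median of -0.15 (6.10% and 28.6%), so the balance of directions rests on the scaling. Leaving out WT replicate 1, WT replicate 3 or HdR replicate 2 gave 7, 18 and 23 higher. Of the partner genes named below, Snu13, Nop56, Naf1, Tent4b, Pop7, Pop4, Polr1d, Taf1c, Rrp9, Snapc5, Bdp1 and C1d were not past the threshold without HdR replicate 2. The lists were drawn up with results of these data known.

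Among box C/D proteins, 3 of 9 rose and none fell (median 0.24). They were Snu13 (84.9 ± 3.91 to 115 ± 3.33 bases per Mb, SD, n = 3, log2 change 0.44) and Nop56 (0.47), both parts of the particle's core, and the assembly factor Znhit3 (1.05), with limma adjusted p of 0.0418, 0.0442 and 0.0129. Among box H/ACA proteins, 3 of 6 rose and none fell (median 0.50): the core subunits Nop10 (0.69) and Nhp2 (0.73) and the assembly factor Naf1 (0.58), with limma adjusted p of 0.0164, 0.0251 and 0.0405. With total scaling 1 of the 9 and none of the 6 passed. With the length trend removed Znhit3, Nop56 and Naf1 stayed past the threshold and Snu13, Nop10 and Nhp2 did not. Of 11 Cajal body and maturation factors, Tent4b, a poly(A) polymerase of nuclear RNA, fell (-0.67, limma adjusted p = 0.0434, or 0.169 with the length trend removed) and none rose. The replicate block gave 1 higher and 3 lower of these 11.

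RNase P and RNase MRP share most protein subunits. Of 10 tested, 6 rose and none fell (median 0.50), led by Pop5, from 29.7 ± 4.24 to 74.4 ± 13.6 bases per Mb (SD, n = 3, log2 change 1.29, limma adjusted p = 0.00573). Pop7, Rpp21 and Pop4 rose by 0.99, 0.78 and 0.57 (limma adjusted p = 0.0207, 0.0164 and 0.0365). With the length trend removed 2 of the 10 passed, and Pop5 was among them (1.00, limma adjusted p = 0.00578), while Pop7, Rpp21 and Pop4 were not. Total scaling also left 2, Pop5 and Pop7.

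RNA polymerase I and its factors, which make Rn45s, had 3 of 15 higher and 1 lower. Taf1d rose by 1.10 and Polr1d by 1.01, the latter a subunit shared with polymerase III, and Cd3eap rose by 0.79, while Taf1c fell by 0.81 (limma adjusted p = 0.0109, 0.0268, 0.0131 and 0.0383). Polr1d and Taf1c were not past the threshold with the length trend removed, nor Cd3eap with total scaling, and the block gave 5 higher and 2 lower. Of 29 factors of pre-rRNA processing, Emg1, an rRNA methyltransferase, and Rrp9, a protein of the U3 particle, rose by 0.62 and 0.54 and none fell (limma adjusted p = 0.0238 and 0.0295), a share below that of all genes in each direction. The block gave 3 higher and 2 lower of the 29, and total scaling 0 and 2. RNA polymerase III and its initiation factors, which make Rpph1 and Rmrp, had 2 higher and 6 lower of 21 (median -0.30). Polr3gl and Snapc5 rose by 0.96 and 0.78, while Pou2f1 fell by 1.23 and Bdp1 by 0.62 (limma adjusted p = 0.0151, 0.0206, 0.00979 and 0.0238). With the length trend removed the list had 1 higher and 1 lower and a median of 0.01: Polr3gl and Pou2f1 stayed past the threshold, and Bdp1 was at -0.04 (limma adjusted p = 0.818). Snapc5 was not past it with the length trend removed or with total scaling.

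The RNA exosome, which trims the ends of guide RNAs, had 5 of 14 genes higher and 1 lower. Exosc1, Exosc5 and the cofactor C1d rose by 0.81, 0.82 and 1.15, and the helicase Mtrex fell by 0.98 (limma adjusted p = 0.0129, 0.0168, 0.0217 and 0.0144). These 4 stayed past the threshold with the length trend removed, Exosc1 and Exosc5 were not past it with total scaling, and the block gave 6 higher and 4 lower. Of 7 genes of the 7SK particle and P-TEFb, Ccnt1 fell (-0.96, limma adjusted p = 0.0181, or 0.105 with the length trend removed) and none rose, and the block gave 2 lower. Of 7 telomerase and shelterin genes none passed, and Pot1a, of the shelterin complex, came nearest (-0.61, limma adjusted p = 0.0626). Pot1a was past the threshold with the block (0.0144) and with total scaling (0.0427). On a list of 20 noncoding genes taken as snoRNA hosts, 13 rose and 1 fell (median 1.07). Snhg15 rose by 1.44 (limma adjusted p = 0.00615). The gene that fell was Meg3, an imprinted noncoding RNA, from 28.7 ± 7.46 to 7.18 ± 1.29 bases per Mb (SD, n = 3, log2 change -1.84, limma adjusted p = 0.00369). By the annotation used, no member lies in Snhg15 or Meg3.

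Other small structural RNAs, histone genes and nuclear-retained long noncoding RNAs gave a mixed picture. The 7 other small structural RNAs of the table were all below the filter, at sums of 0.223 to 0.341 bases per Mb in WT and 0.486 to 1.08 in HdR. Of 63 replication-dependent histone genes, 10 were tested, of which 4 rose and none fell (median 0.39). With the length trend removed 1 was higher and 2 lower, with a median of -0.08, and total scaling gave 1 higher and none lower. Hist1h4h went from 3.78 ± 0.950 to 13.9 ± 2.11 bases per Mb (SD, n = 3, log2 change 1.65, limma adjusted p = 0.00419) and stayed past the threshold with the length trend removed (0.99, limma adjusted p = 0.0158). Of 3 nuclear-retained long noncoding RNAs, Malat1 fell (712 ± 120 to 329 ± 144, log2 change -1.22, limma adjusted p = 0.0326) and none rose. The log2 change of Malat1 was not past the threshold with the length trend removed (-0.72, limma adjusted p = 0.102), without the filter (0.0766), or without WT replicate 1 (0.104) or WT replicate 3 (0.0866), and the block gave 2 of the 3 lower.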

How the data were processed

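Per the labels' protocols, total RNA from ear skin was isolated with TRIzol and RNeasy kits, made into libraries with an NEBNext Ultra II RNA kit and sequenced on a NovaSeq. The build is GRCm38, per the submitters' processing notes. The labels and notes used here name no aligner, annotation, strand setting or RNA selection.

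The deposited coverage signal is a sum of aligned bases per gene symbol in 6 columns. Of its values, 1656 equal 300, taken here as the length of a read pair, and 10.3% of values up to 3000 are whole multiples of 300. They are not read counts, so limma-trend (R 4.3.3, limma 3.58.1, robust) was run on log2(bases per Mb + 1) after scaling by the trimmed mean of M values (30% and 5% trimmed, factors 0.792 to 1.19), for genes that reached 1 base per Mb in 3 or more libraries, HdR against WT, two-sided, with Benjamini-Hochberg adjustment over 15049 genes. Depth was 14.8 to 19.9 M read pairs. The code was tested on simulated data. All adjusted p values in the text are from limma.

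Same-numbered WT and HdR libraries deviated together from their group means (r of 0.163, 0.416 and 0.366 across genes), so the replicate number was tried as a block. Between unlike numbers r ran from -0.3775 to 0.1593. The highest of these, WT replicate 1 with HdR replicate 3, was near the value of replicate 1 with its own number. Other alternatives were scaling by total bases, by medians of ratios or by quantiles, voom, other filters, a pseudocount of 0.1, a threshold of 0.1, Rn45s left out of scaling, a spline on transcript length removed (4 degrees of freedom, lengths of GENCODE M21) and each library left out.

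The members and gene lists were chosen with earlier results of these data known. Named are the 4 structural RNAs, members past the threshold, the most abundant members of each class (8, 8 and 4), their hosts, Rbck1 and up to 4 genes of smallest p per list. Other genes and members named for their position or separation were chosen after their values were seen. The pair of 1 tested member and its host is not reported here.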

Additional observations from a re-analysis of the deposited data

How the results depend on the processing

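Of 16 members higher in HdR, 11 stayed so with total scaling, and the count lay between 14 and 19 with median-of-ratios and quantile scaling, voom, no filter, a pseudocount of 0.1, the replicate block, Rn45s left out of scaling and a threshold of 0.1. A filter at 5 bases per Mb kept 4 members, all higher. Removing the length trend left 3 higher and 1 lower, and 3 higher and 2 lower together with the replicate block. Leaving out 1 library gave 4 to 9 higher members except without WT replicate 2 (15), and 9 without HdR replicate 2 with the filter in 2 libraries. The replicate block kept all 16 calls of members higher in HdR, and it moved the partner genes from 11 to 23 lower.

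The count of partner genes higher in HdR, 37, was 18 with total scaling, 24 without a filter and 7 to 39 with 1 library left out and 24 without HdR replicate 2 with the filter in 2 libraries. The count lower, 11, was 19 with total scaling, 7 with quantile normalisation, 26 with voom, 5 without a filter, 3 with the length trend removed, 19 at a threshold of 0.1 and 2 to 18 with 1 library left out, and with the filter in 2 libraries 6 without HdR replicate 1 and 4 without HdR replicate 2. The cause was not tested.

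Signs turned as follows (log2 change). With the length trend removed, alone and with the replicate block, Snora3 was at -0.0461, Snora64 -0.0625, Snora68 -0.0217, Snora28 -0.63, Snord96a -0.10, Snord100 -0.16, Hist1h2bg -0.0574, Imp3 -0.14 and Cop1 0.42. The log2 change of Snora28 was also -0.18 with total scaling, -0.0239 with a pseudocount of 0.1, and -0.0448, -0.0669 and -0.13 without WT replicate 2, HdR replicate 1 and HdR replicate 3, the last 2 also with the filter in 2 libraries, and ranged up to 0.21 with HdR replicate 2 left out. With quantile normalisation Eif5 was at -0.14, Rpl4 -0.22 and Dcn -0.41. With total scaling Eif5 was at -0.12, Hexim2 -0.0190 and Kcnq1ot1 -0.0138. Cop1 was at 0.0706 with voom and 0.12 without HdR replicate 2, with either filter, and down to -0.19 without HdR replicate 3. Over all settings, 34 of 2320 log2 changes of named genes turned sign. The 91 members below the filter reached 1 base per Mb, or 11.7 to 23.6 times 300 bases, in fewer than 3 libraries. They are described, and none was tested singly in the main fit.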
